A study of Mus musculus with 20 samples.

Results

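The genes described here are those that bone marrow-derived macrophages had all but lost after a few hours of lipopolysaccharide (LPS), a cell wall component of Gram-negative bacteria. They were chosen from the deposited read counts of cells grown with solvent alone (DMSO). A gene was taken if its mean level in 4 unstimulated DMSO libraries was at least 10 CPM (counts scaled to library size by the trimmed mean of M values, TMM) and its mean in 3 DMSO+LPS libraries was 1/12 of that or less. The rule found 49 genes among the 24342 gene symbols of the table. It had 8173 genes at 10 CPM or more to draw from, and the 49 made up 0.6% of them. All 49 were among the 12013 genes that passed the filter on low counts, though each was sure to differ between the groups that chose it.

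LPS is sensed by Toll-like receptor 4, which switches on inflammatory genes through NF-kB and interferon regulatory factors. The same stimulus silences other genes. An mRNA falls within hours where its synthesis drops and the molecules already made are short-lived or are degraded, and transcripts of regulatory proteins are often unstable. In resting macrophages such genes include myeloid transcription factors, receptors for migration cues, and brakes on growth signalling. As bulk RNA was sequenced, fewer cells with a transcript and less of it per cell cannot be told apart.

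The study grew bone marrow of C57BL/6 mice for 7 to 8 days in 15% L929-conditioned medium, a source of the macrophage growth factor M-CSF. SGC0946, an inhibitor of the histone H3K79 methyltransferase DOT1L, was present at 1 µM throughout that time in the inhibitor arm, and DMSO took its place in the control arm. The 6 groups were SGC0946+LPS (n = 3), DMSO+LPS (n = 3), SGC0946+GW3965 (n = 3), DMSO+GW3965 (n = 3), SGC0946 (n = 4) and DMSO (n = 4). LPS was given at 10 ng/mL for 3 h, and GW3965, an agonist of the liver X receptors (LXR), at 2 µM for 17 h. A replicate number marks an animal. Cells of animals 1 to 3 were used in each group, and those of animal 4 only in the SGC0946 and DMSO groups. GW3965 cells were exposed for a longer time than LPS cells, and the labels list no vehicle for either agent. The sources used here give neither the age nor the sex of the animals.

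The 20 libraries held 8.175 to 13.332 M counts in the table used. All 12 macrophage markers were measured, with a summed level of 32900 to 47200 CPM per library. B cell markers summed to at most 6.27 CPM and erythroid markers to at most 0.335 CPM. T and NK cell markers reached 34.3 to 40.3 CPM in SGC0946+LPS and 18.4 to 23 CPM in DMSO+LPS cells, and Lck held nearly all of it, since the other 6 markers stayed under 1 CPM in every library. Neutrophil markers summed to 1.91 to 7.63 CPM over the SGC0946 arm and to 24.7 to 46.5 CPM over the DMSO arm, without overlap. Dendritic cell markers summed to 28.7 to 41.8 CPM in SGC0946+LPS and 17.6 to 26.6 CPM in DMSO+LPS cells. They summed to 21.9 to 32.9 CPM in SGC0946 and 12.2 to 19.7 CPM in DMSO cells. Most of this was Itgax alone, at means of 29.7, 18.5, 25.0 and 14.4 CPM in these groups, in the same order. Mast cell and basophil markers summed to 7.46 to 29.8 CPM over the SGC0946 arm and to 5.59 to 13.6 CPM over the DMSO arm. Kit held nearly all of it, since the other 5 markers stayed under 1 CPM in every library. Stromal markers summed to 5.33 to 9.41 CPM in LPS libraries and stayed under 1 CPM in all others. Pdgfrb made up most of the LPS sums, at means of 8.07 CPM in SGC0946+LPS and 6.77 CPM in DMSO+LPS cells. The part of these markers in the results was not tested. The word reanalyzed stands in 6 titles, those of all DMSO+GW3965 libraries and of DMSO replicates 1 to 3. LPS against DMSO therefore sets libraries without that word against a group in which only replicate 4 lacks it. With DMSO replicate 4 alone as the unstimulated group, 51 genes met the rule, 45 of the 49 among them.

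In DMSO cells the 49 genes were 12.03-fold to 127.7-fold lower after LPS, with a median of 19.39-fold. These values chose the genes and are a description. The fall was 12-fold to 20-fold in 25 genes, 20-fold to 50-fold in 16 and larger in 8. The 8173 genes at 10 CPM or more had a median ratio of DMSO over DMSO+LPS of 0.994. A 12-fold difference after 180 min equals 3.585 halvings, on average 1 in 50.2 min. The median gene halved every 42.1 min by the same arithmetic. No earlier time was sampled, so neither the start nor the course of the loss is known.

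**Figure D1:**
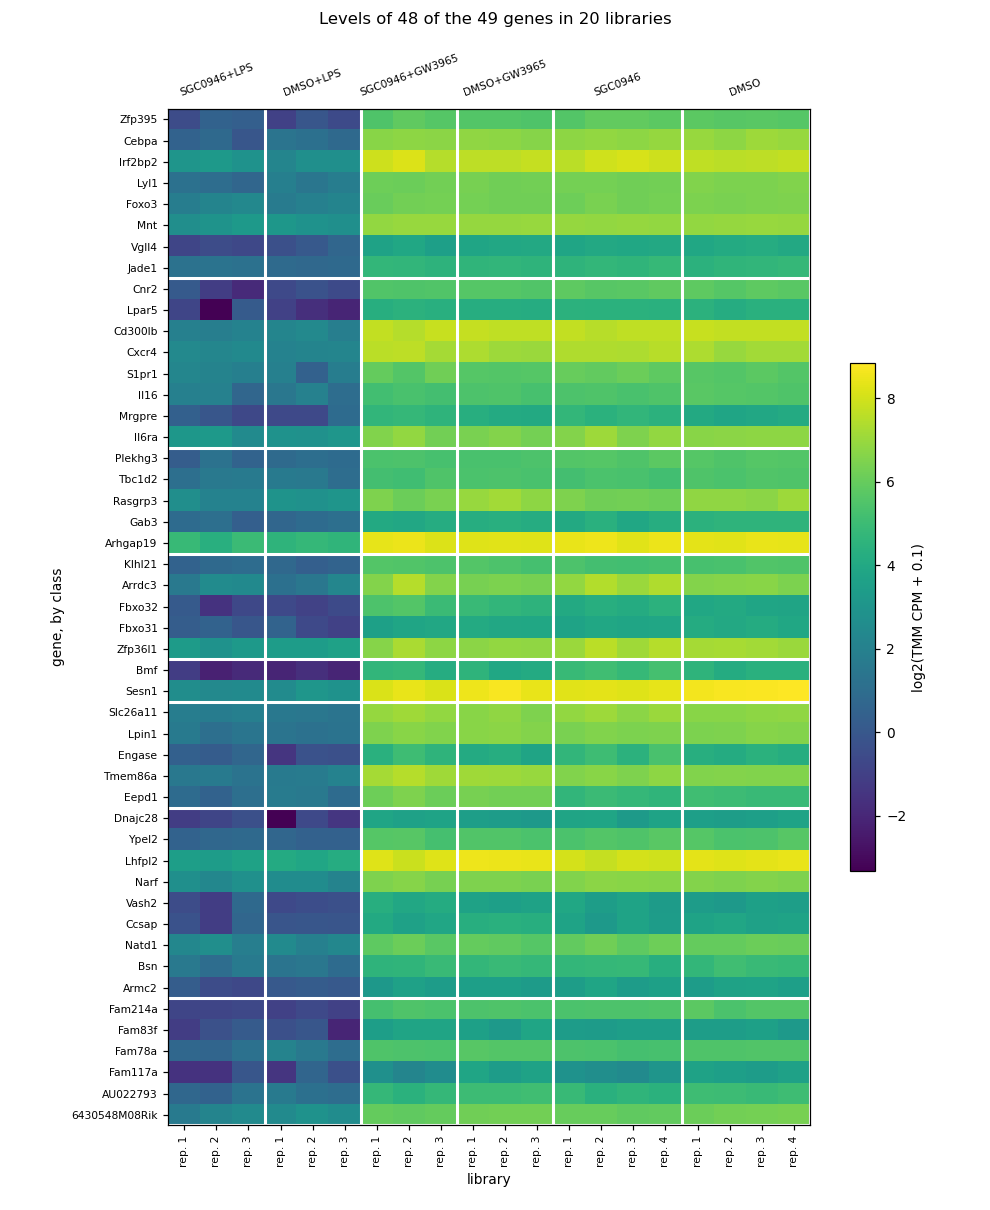
Level of 48 of the 49 genes (rows, grouped by function and ordered by the size of their fall) in each of the 20 libraries (columns, by group), as log2 of TMM CPM with 0.1 added. All rows share one colour scale. Within every row the 6 LPS columns are darker than the other 14. The smallest gap between the lowest of the 14 and the highest of the 6 was 3.07-fold.

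Every LPS library of either arm lay below every one of the other 14 libraries in all 49 genes. For the DMSO+LPS and DMSO libraries the rule all but fixed this. The share of all genes tested that were separated in this way was not counted. In DMSO+LPS against DMSO, the contrast that chose the set, 38.7% of all genes tested were lower and 35.4% higher (74.1% either way, edgeR). Taking the lowest library without LPS against the highest with it, the gap was 3.07-fold in Fam117a, 11.9-fold in the median gene and 71.7-fold in Fam214a. The 3 genes just inside the threshold were Armc2, Eepd1 and 6430548M08Rik, at 12.03-fold, 12.05-fold and 12.12-fold. Just outside it were Kctd7 at 11.96-fold, Mideas at 11.92-fold and Eya1 at 11.66-fold. What remained after LPS was little: the 3 DMSO+LPS libraries together held 4 to 609 counts per gene, with a median of 57. Bmf, Lpar5 and Dnajc28 had under 10 counts each, so the depth of their fall is known only within a wide interval. Per length of transcript the genes had a median level of 13.1 RPKM (reads scaled by transcript length and library depth) in DMSO cells, against 15.3 RPKM over the 8173 genes that met the same level limit. The range ran from 1.91 RPKM in Bsn to 136 RPKM in Sesn1.

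Transcription factors and chromatin proteins made up 8 of the 49. Cebpa encodes C/EBP alpha, a factor needed to form myeloid cells, and is a gene of 1 exon at chr7:35119293-35121928 on the plus strand. In SGC0946+LPS cells it had 1.34, 1.68 and 0.854 CPM, against 110, 117, 111 and 121 CPM in SGC0946 cells. In DMSO+LPS cells it had 2.46, 2.13 and 1.66 CPM, against 125, 108, 135 and 123 CPM in DMSO cells. The fall was thus 59.05-fold in DMSO cells (95% interval 44.3 to 78.9, exact binomial on the summed counts, covering counting error only). In SGC0946 cells Cebpa fell by 6.41 ± 0.14 on the log2 scale (fitted value ± SE; edgeR adjusted p = 1.45e-20).

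Foxo3, a forkhead factor that growth factor signalling keeps out of the nucleus, was at 3.42, 4.33 and 4.95 CPM in SGC0946+LPS cells, against 70.4, 84.8, 74.8 and 79.4 CPM in SGC0946 cells. DMSO+LPS cells had 3.27, 3.83 and 4.43 CPM, against 87.6, 84.0, 85.9 and 90.9 CPM in DMSO cells. The groups were far apart in both arms, and the fitted log2 change in SGC0946 cells was -4.21 ± 0.11 (edgeR adjusted p = 8.7e-19). Zfp395 had the deepest fall of this class in DMSO cells, at 86.09-fold. It was followed by Cebpa, then by Irf2bp2 (a co-repressor that binds IRF2) at 34.3-fold and Lyl1 (a basic helix-loop-helix factor of blood progenitors) at 27.29-fold. Mnt, which binds MAX and competes with MYC, had 6.35, 7.46 and 9.22 CPM in SGC0946+LPS cells, against 121, 118, 122 and 118 CPM in SGC0946 cells. Its level without LPS was even across all libraries of both arms, from 116 to 125 CPM. Jade1, a scaffold of histone acetyltransferase complexes, and Vgll4, a cofactor of TEAD factors, completed the class at 14.98-fold and 15.79-fold.

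**Figure D2:**
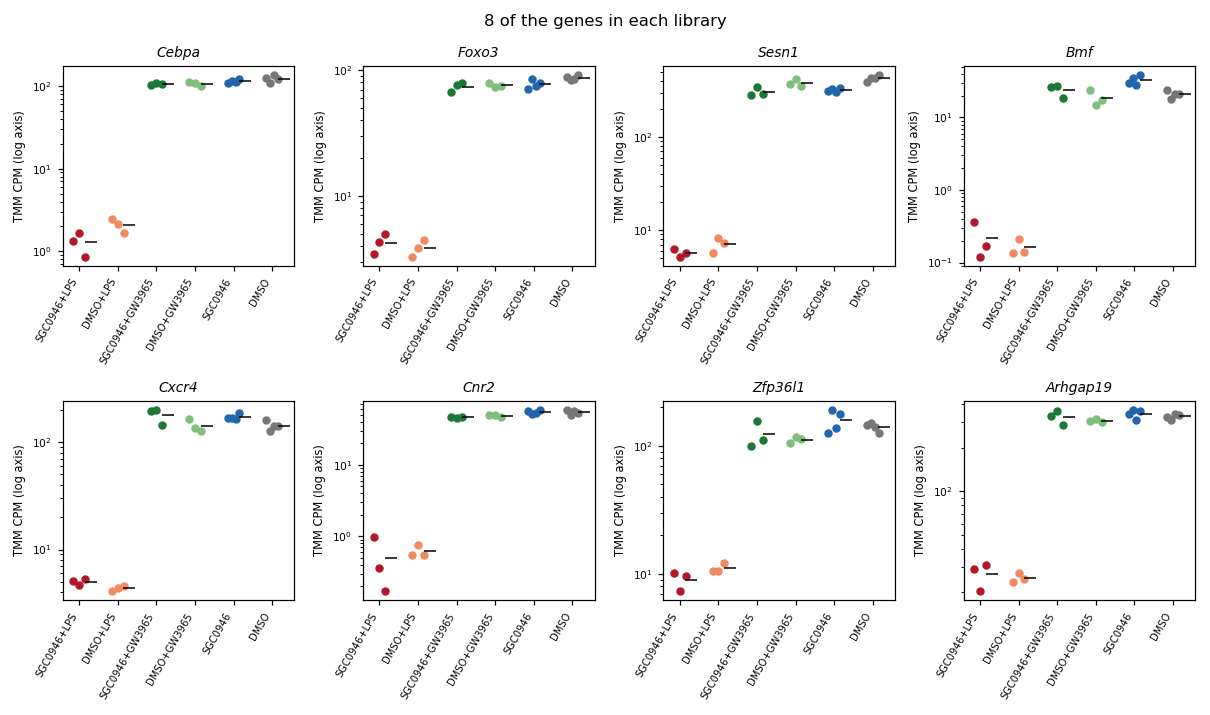
TMM CPM on a log axis of 8 of the genes in every library; points are libraries and bars are group means. In each panel the SGC0946+LPS and DMSO+LPS points lie together and below all others, while the 4 groups without LPS lie close to each other.

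Receptors, with the cytokine precursor Il16, gave 9 genes. Cxcr4, the receptor for CXCL12 that holds blood cells in the marrow (chr1:128588199-128592299, minus strand), had 5.12, 4.69 and 5.30 CPM in SGC0946+LPS cells, against 167, 168, 164 and 187 CPM in SGC0946 cells. In DMSO+LPS cells it had 4.09, 4.37 and 4.57 CPM, against 161, 126, 141 and 142 CPM in DMSO cells. Both arms kept about the same residue, and the fitted log2 change in SGC0946 cells was -5.09 ± 0.16 (edgeR adjusted p = 7.7e-18). The cannabinoid receptor gene Cnr2 fell further: SGC0946+LPS cells had 0.976, 0.361 and 0.171 CPM, against 55.7, 51.6, 53.8 and 58.7 CPM in SGC0946 cells. Its ratio in DMSO cells was 88.62 (interval 52.4 to 155).

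Other G protein-coupled receptor genes of the set answer lipids. S1pr1 and Lpar5, for sphingosine 1-phosphate and lysophosphatidic acid, were 17.66-fold and 81.54-fold lower in DMSO+LPS cells. Mrgpre, an orphan receptor, was 16.59-fold lower. Cd300lb, an activating immune receptor, had 3.78, 3.61 and 4.10 CPM in SGC0946+LPS cells, against 209, 183, 207 and 202 CPM in SGC0946 cells. Il6ra, the ligand-binding chain of the interleukin-6 receptor, fell less, to 8.66, 9.5 and 5.64 CPM in SGC0946+LPS cells, against 97.5, 133, 88.7 and 116 CPM in SGC0946 cells. Its fitted log2 change there was -3.74 ± 0.18 (edgeR adjusted p = 3.8e-14). The gene of its ligand, Il6, moved the other way, to 447 CPM in SGC0946+LPS cells, against 0.116 CPM in SGC0946 cells.

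The promoters of 6 of the genes are shown as examples. The common fall with LPS was what chose the set, and whether the genes share control was not tested. The sequences are from RefSeq on GRCm38.p6 and hold the 250 bases before an annotated start. Their places are chr3:89913197-89913446 (minus strand), chr11:60913793-60914042 (minus strand), chr8:120113902-120114151 (plus strand), chr12:80113014-80113263 (minus strand), chr7:35119043-35119292 (plus strand) and chr2:118549687-118549936 (minus strand). Capitals mark matches on either strand to CACGTG (E-box), GAGGAAGT (PU.1), GTAAACA (FOXO), CCGGAAGT (ETS), TGANTCA (AP-1), TGACGTCA (CRE) and GGGCGGGG (KLF and SP).
Il6ra: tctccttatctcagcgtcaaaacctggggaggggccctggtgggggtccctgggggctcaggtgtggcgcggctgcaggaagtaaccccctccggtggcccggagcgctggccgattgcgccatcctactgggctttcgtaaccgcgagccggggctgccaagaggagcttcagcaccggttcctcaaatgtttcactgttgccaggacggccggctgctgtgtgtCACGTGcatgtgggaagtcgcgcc
Natd1: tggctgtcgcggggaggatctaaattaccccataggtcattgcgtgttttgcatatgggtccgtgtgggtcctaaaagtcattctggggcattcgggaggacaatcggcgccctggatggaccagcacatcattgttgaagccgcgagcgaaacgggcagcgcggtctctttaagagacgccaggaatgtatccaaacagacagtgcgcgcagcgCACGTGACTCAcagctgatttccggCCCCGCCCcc
6430548M08Rik: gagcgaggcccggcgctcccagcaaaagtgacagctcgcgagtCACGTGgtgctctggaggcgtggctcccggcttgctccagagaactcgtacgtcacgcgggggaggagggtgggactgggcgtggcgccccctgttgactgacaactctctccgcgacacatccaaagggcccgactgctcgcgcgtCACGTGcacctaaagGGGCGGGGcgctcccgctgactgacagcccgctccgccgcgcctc
Zfp36l1: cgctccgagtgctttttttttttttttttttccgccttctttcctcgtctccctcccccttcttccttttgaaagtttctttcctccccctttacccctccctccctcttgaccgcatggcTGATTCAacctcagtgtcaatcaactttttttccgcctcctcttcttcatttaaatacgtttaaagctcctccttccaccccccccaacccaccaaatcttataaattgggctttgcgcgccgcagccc
Cebpa: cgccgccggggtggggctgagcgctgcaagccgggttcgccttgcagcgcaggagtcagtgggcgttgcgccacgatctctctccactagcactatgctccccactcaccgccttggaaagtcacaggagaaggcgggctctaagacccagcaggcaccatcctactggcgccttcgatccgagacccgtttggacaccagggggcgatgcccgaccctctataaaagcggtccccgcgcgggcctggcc
Bmf: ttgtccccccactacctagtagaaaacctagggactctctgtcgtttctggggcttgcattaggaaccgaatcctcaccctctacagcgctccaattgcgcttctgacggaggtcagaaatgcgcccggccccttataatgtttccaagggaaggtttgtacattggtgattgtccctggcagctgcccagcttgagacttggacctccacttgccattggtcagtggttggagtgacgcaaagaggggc
The E-box was chosen for display because MNT and MAX bind it. It stands alone in Il6ra, overlaps an AP-1 match in Natd1 and occurs at separate places in 6430548M08Rik. Cebpa and Bmf held none of the 7 motifs in the 250 bases shown, though a RefSeq window of 300 bases of Bmf held GGGCGGGG. RefSeq promoters were at hand for 39 of the 49 genes, 60 windows of 300 bases in all. CACGTG was in 15.0% of them, against 10.1% of 12246 windows of tested genes and 7.15% of all 32851 windows. The share with GAGGAAGT was 6.67%, against 3.36% and 3.2% in the same backgrounds, and that with TGANTCA 8.33%, against 5.3% and 7.81%. GGGCGGGG was in 28.3%, against 31.7% and 17.6%. GTAAACA was in 1.67%, against 2.65% and 3.65%, and CCGGAAGT in 1.67%, against 8.27% and 3.89%. TGACGTCA was in none of the 60, against 3.01% and 1.79%. These shares are descriptions of letters in windows and were not tested.

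Regulators of small GTPases and signalling adaptors gave 5 genes, with falls of 13.1-fold to 25.8-fold in DMSO cells. Arhgap19, which turns off small GTPases (chr19:41766588-41802084, minus strand), had 29.2, 20.4 and 30.9 CPM in SGC0946+LPS cells, against 343, 367, 310 and 359 CPM in SGC0946 cells. In DMSO+LPS cells it had 23.7, 27.4 and 24.6 CPM, against 329, 314, 344 and 339 CPM in DMSO cells. With 609 counts left over 3 libraries, its ratio of 13.13 had a narrow counting interval (12 to 14.1), which leaves out the spread between animals. Rasgrp3, an activator of Ras and Rap that responds to diacylglycerol, was 15.62-fold lower. Plekhg3 (a guanine nucleotide exchange factor) was 25.78-fold lower, Tbc1d2 (a brake on Rab7) 16.82-fold, and Gab3 (a docking protein of M-CSF receptor signalling) 13.18-fold.

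Genes of protein and RNA turnover numbered 5. Zfp36l1 encodes a protein that binds AU-rich elements and leads mRNAs to decay (chr12:80107760-80113013, minus strand). It had 10.2, 7.34 and 9.57 CPM in SGC0946+LPS cells, against 127, 191, 137 and 178 CPM in SGC0946 cells. In DMSO+LPS cells it had 10.5, 10.5 and 12.3 CPM, against 145, 150, 141 and 127 CPM in DMSO cells. As 55.9% of its exon length overlaps an annotated gene on the other strand and the sources used here do not give the strand setting of the counting, reads of the pair cannot be told apart. Its paralog Zfp36, which was not in the set, rose to 560 CPM in SGC0946+LPS cells, against 76.7 CPM in SGC0946 cells (log2 change 2.87 ± 0.07, edgeR adjusted p = 1.6e-19). The ubiquitin ligase adaptors Fbxo31, Fbxo32 and Klhl21 were 21.78-fold, 29.2-fold and 30.8-fold lower in DMSO+LPS cells, and Arrdc3, an alpha-arrestin that brings ligases to membrane proteins, 29.73-fold.

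Sesn1 and Bmf act in stress and cell death. Sesn1 encodes sestrin 1, an inhibitor of mTORC1 signalling (chr10:41810574-41908436, plus strand). It had 6.22, 5.17 and 5.64 CPM in SGC0946+LPS cells, against 311, 330, 302 and 334 CPM in SGC0946 cells. In DMSO+LPS cells it had 5.73, 8.20 and 7.33 CPM, against 390, 428, 430 and 459 CPM in DMSO cells. It had the highest level per length of the set before LPS and one of the deepest falls, 60.21-fold in DMSO cells (interval 51.3 to 69.6). Bmf, a pro-apoptotic protein that binds BCL2 relatives, had 0.366, 0.120 and 0.171 CPM in SGC0946+LPS cells, against 29.6, 35.0, 28.3 and 38.0 CPM in SGC0946 cells. DMSO+LPS cells had 0.136, 0.213 and 0.138 CPM, against 23.7, 17.8, 20.8 and 20.8 CPM in DMSO cells. The DMSO+LPS values rest on 4 counts, so the ratio of 127.7 has an interval of 48.0 to 453.

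A further 5 genes serve lipid, glycan and ion handling. Lpin1, a phosphatidate phosphatase of lipid synthesis, had 3.17, 2.04 and 2.56 CPM in SGC0946+LPS cells, against 83.9, 91.7, 85.6 and 89.0 CPM in SGC0946 cells. Slc26a11, a sulphate transporter, was 39.67-fold lower in DMSO+LPS cells. Engase, a cytosolic enzyme that frees glycans, was 34.42-fold lower, Tmem86a, a lysoplasmalogenase, 26.61-fold, and Eepd1, which takes part in cholesterol efflux, 12.05-fold. The remaining 15 genes had falls of 12.03-fold to 105.8-fold. Lhfpl2, a tetraspan membrane protein (chr13:94057152-94195410, plus strand), had 11.1, 10.6 and 12.6 CPM in SGC0946+LPS cells, against 269, 221, 270 and 248 CPM in SGC0946 cells. The cytoskeletal and ciliary genes were Vash2 (a tubulin carboxypeptidase), Ccsap (a centriole and spindle protein), Bsn (a scaffold of presynaptic terminals) and Armc2 (needed for the sperm tail). Those with known domains but little known of their role were Narf, Dnajc28, Natd1 and Ypel2. Fam214a, a gene known by its family name, fell 105.8-fold in DMSO cells, while Fam78a, Fam83f, Fam117a, 6430548M08Rik and the long noncoding RNA AU022793 fell by 12.1-fold to 19.2-fold.

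Macrophages grown with SGC0946 gave a test in libraries that the rule did not use, though these came from the same animals. All 49 genes were lower in SGC0946+LPS than in SGC0946 cells and none was higher (edgeR quasi-likelihood test, adjusted p under 0.05 over 12013 genes; 3 against 4 libraries). Among all genes tested 38.8% were lower in that comparison (35.8% higher, 74.6% either way). The largest adjusted p among the 49 was that of Fam117a (edgeR adjusted p = 2.17e-09). The median log2 change of the set was -4.57 (from -7.13 to -3.27), against -0.07 over all genes tested. In the DMSO arm the median was -4.29 (from -6.86 to -3.57). The deepest falls with SGC0946 were those of Bmf (149.5-fold), Cnr2 (109.4-fold), Cebpa (88.68-fold) and Fam214a (88.15-fold). The shallowest were those of Bsn (9.57-fold), Gab3 (10.69-fold) and Jade1 (11.12-fold).

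**Figure D3:**
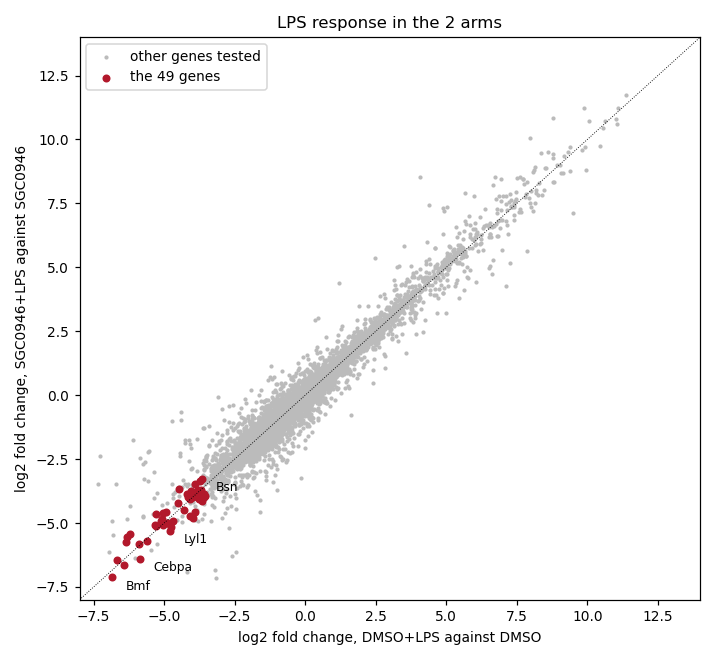
Fitted log2 fold change with LPS in the DMSO arm (x axis) and in the SGC0946 arm (y axis) for every gene tested, with the 49 genes in red and the line of equal change dotted. The red points lie at the lower left, from -7.13 to -3.27 on the y axis; their place on the x axis was fixed by the rule.

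The rule applied to the SGC0946 arm found 58 genes. Of these, 45 were in the set, which is 91.84% of the 49 and 77.59% of the 58. Bsn, Gab3 and Jade1 missed the 12-fold limit there, and Fam117a missed the level limit with 6.80 ± 1.01 CPM in SGC0946 cells (SD, n = 4). The 13 genes found in the SGC0946 arm alone had ratios of 6.998 (Map3k9) to 11.84 (Rapgef3) in the DMSO arm, and so had fallen there too. Among them were Tfeb, a master factor of lysosome genes, Gadd45a, a stress gene, and Per1 of the circadian clock. Set side by side, 39 of the 49 genes had log2 changes in the SGC0946 and DMSO arms that lay within 0.5 of each other. The fitted fall was deeper in the SGC0946 arm in 21 genes and shallower in 28. The differences were not tested, since the DMSO+LPS and DMSO libraries chose the genes.

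Before LPS, 12 of the 49 genes differed between SGC0946 and DMSO cells, none by 2-fold or more. Higher in SGC0946 than in DMSO cells were 4 genes (background 4.55% of genes tested), and lower were 8 (background 4.18%; 8.72% either way). This comparison shares the 4 DMSO libraries with the rule. The word reanalyzed is in the titles of 3 of the 4 DMSO libraries and of no SGC0946 library, so that label and the inhibitor can be told apart only through DMSO replicate 4. With that library alone as the DMSO group, an alternative chosen after the data were seen, all 12 genes kept their direction and 2 their call, Rasgrp3 (-0.77, edgeR adjusted p = 0.0139) and Sesn1 (-0.53, 0.0243). That fit takes the lone library to vary like the other groups and called 1.35% of all genes tested. Rasgrp3 had 89.9, 72.7, 77.4 and 71.8 CPM in SGC0946 cells, against 114, 113, 107 and 133 CPM in DMSO cells. The ranges did not overlap, and the log2 change was -0.58 ± 0.10 (edgeR adjusted p = 0.000497). Sesn1, with the values given above, changed by -0.42 ± 0.07 (edgeR adjusted p = 0.000711), with no overlap between the groups. Fam117a had 7.29, 6.41, 5.60 and 7.91 CPM in SGC0946 cells, against 12.8, 11.5, 10.6 and 12.5 CPM in DMSO cells, a change of -0.79 ± 0.17 (edgeR adjusted p = 0.00423). Lhfpl2, 6430548M08Rik, AU022793, Gab3 and Lyl1 were lower by smaller steps, from -0.41 to -0.22.

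Mrgpre, Bmf, Engase and Arrdc3 were the genes called higher. Mrgpre had 26.1, 21.4, 25.5 and 22.8 CPM in SGC0946 cells, against 16.7, 14.3, 15.6 and 17.0 CPM in DMSO cells, a change of 0.59 ± 0.12 (edgeR adjusted p = 0.0033). Bmf, whose values stand above, was higher by 0.66 ± 0.14 (edgeR adjusted p = 0.00408). Arrdc3 had 118, 171, 127 and 167 CPM in SGC0946 cells, against 95.5, 97.7, 103 and 87.0 CPM in DMSO cells (0.61 ± 0.16, edgeR adjusted p = 0.0185). SGC0946 replicates 2 and 4 were its highest libraries, as they were for Engase, at 25.7, 33.8, 22.2 and 40.3 CPM, against 19.6, 17.8, 21.7 and 19.3 CPM in DMSO cells (0.64 ± 0.16, edgeR adjusted p = 0.0139). Without SGC0946 replicates 2 and 4, an alternative chosen after the data were seen, 5 of the 12 calls were left: Rasgrp3, Gab3, Sesn1 and Fam117a lower and Mrgpre higher. Arrdc3 was then at 0.36 (edgeR adjusted p = 0.392), Engase at 0.29 (0.446) and Bmf at 0.48 (0.135). With the animal as a block 3 more genes were higher with SGC0946: Cxcr4 (0.27, edgeR adjusted p = 0.0174), S1pr1 (0.32, 0.0163) and Fbxo32 (0.36, 0.0387); 12.3% of all genes tested were called in that fit.

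After LPS, when little of these mRNAs was left, the arms differed in 2 genes. 6430548M08Rik had 3.05, 4.33 and 5.47 CPM in SGC0946+LPS cells, against 5.59, 7.24 and 5.95 CPM in DMSO+LPS cells (-0.60 ± 0.17, edgeR adjusted p = 0.0325). Lhfpl2 had the values given above in SGC0946+LPS cells, against 17.3, 14.8 and 18.5 CPM in DMSO+LPS cells (-0.56 ± 0.14, edgeR adjusted p = 0.0201). Both were lower with SGC0946 and their ranges did not overlap (background 3.26% lower). No gene of the set was higher (background 3.86%; 7.13% either way); at an unadjusted p under 0.05 in edgeR, 1 was higher and 6 were lower, which is a smaller share than the 21.3% of all genes tested. The comparison shares the 3 DMSO+LPS libraries with the rule. Neither call held under every alternative: limma-voom gave adjusted p-values of 0.108 for 6430548M08Rik and 0.138 for Lhfpl2. Without SGC0946+LPS replicate 1 they were 0.237 and 0.0557 in edgeR, and without SGC0946+LPS replicate 2 0.0694 and 0.0836. Lhfpl2 also lost its call without DMSO+LPS replicate 1 (edgeR adjusted p = 0.0619) or 3 (0.0733), and 6430548M08Rik without DMSO+LPS replicate 2 (0.227). With the animal as a block Fam78a was lower as well (-0.82, edgeR adjusted p = 0.0446), in a fit that called 9.71% of all genes tested. At 4 to 609 counts per gene over 3 libraries, many differences of the size seen before LPS were not detectable.

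**Figure D4:**
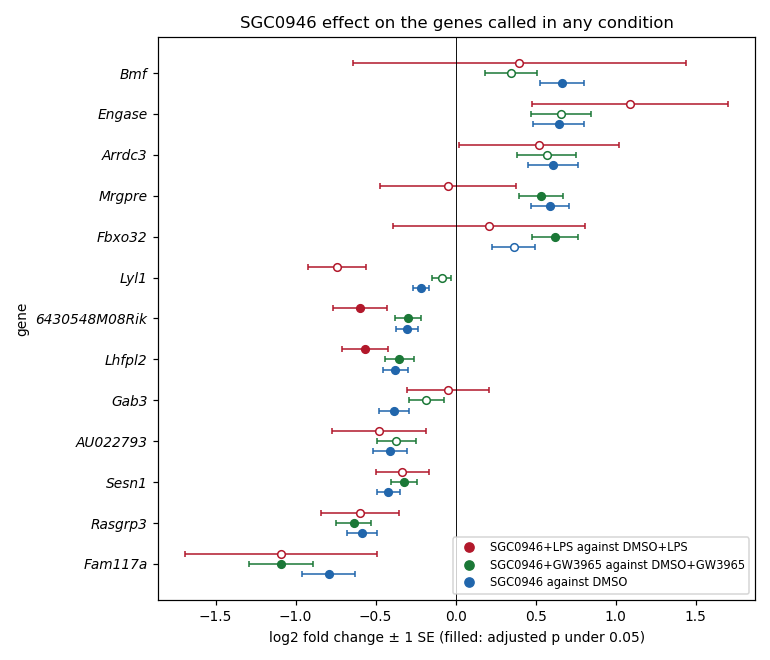
Log2 fold change ± 1 SE with SGC0946 in LPS-treated (red), GW3965-treated (green) and unstimulated cells (blue), for the genes of the set called in any of the 3 conditions; filled points have an edgeR adjusted p under 0.05. Rasgrp3, Sesn1, Lhfpl2, 6430548M08Rik, Fam117a, AU022793, Lyl1 and Gab3 lie below 0 in all 3 conditions. Bmf, Engase, Arrdc3 and Fbxo32 lie above 0 in all 3. Errors are widest after LPS, where some of these are within 1 SE of 0, such as Gab3 (-0.05 ± 0.25) and Bmf (0.40 ± 1.04).

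In cells given GW3965, where neither group had a part in the rule, 7 genes differed between SGC0946+GW3965 and DMSO+GW3965. Fbxo32 and Mrgpre were higher (background 2.24%). Fam117a, Rasgrp3, Lhfpl2, Sesn1 and 6430548M08Rik were lower (background 1.4%; 3.64% either way). Rasgrp3 had 91, 68.5 and 82.8 CPM in SGC0946+GW3965 cells, against 124, 143 and 109 CPM in DMSO+GW3965 cells (-0.64 ± 0.11, edgeR adjusted p = 0.00183). Fam117a had 6.85, 4.57 and 5.84 CPM in SGC0946+GW3965 cells, against 13.9, 10.3 and 12.6 CPM in DMSO+GW3965 cells. Its change of -1.09 ± 0.20 was the largest (edgeR adjusted p = 0.00255). Mrgpre had 25.3, 27.6 and 24.0 CPM in SGC0946+GW3965 cells, against 19.4, 17.1 and 16.6 CPM in DMSO+GW3965 cells (0.53 ± 0.14, edgeR adjusted p = 0.0309). Rasgrp3 and Fam117a kept their calls with any library left out, and the other 5 did not: without SGC0946+GW3965 replicate 2 the adjusted p was 0.118 for Mrgpre, 0.102 for Fbxo32, 0.18 for Lhfpl2 and 0.146 for 6430548M08Rik, and without DMSO+GW3965 replicate 2 it was 0.173 for Sesn1.

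The animal as a block, which fits the design here, raised the count in GW3965 cells to 15, 8 higher and 7 lower, while 5.85% of all genes tested were then called. The 8 genes gained were Cxcr4, Arrdc3, Tmem86a, Slc26a11, Engase and Vash2, which were higher, and Ccsap and AU022793, which were lower. Cxcr4 was 0.34 higher (edgeR adjusted p = 0.0191) and Slc26a11 0.30 higher (0.00891) in that fit. Since all DMSO+GW3965 libraries and none of the SGC0946+GW3965 libraries have the word reanalyzed in their titles, that label and the inhibitor cannot be told apart in this comparison.

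GW3965 itself left most of the genes near their resting level, unlike LPS, for whose effect they were chosen. In DMSO+GW3965 against DMSO cells, which shares the DMSO libraries with the rule, 4 genes were higher (background 1.35%). Lyl1 was lower (background 1.2%, and 2.55% either way). At an unadjusted p under 0.05 in edgeR, 4 were higher and 9 lower there, beside 16.4% of all genes tested. In SGC0946+GW3965 against SGC0946 cells, which the rule did not use, 3 were higher (background 1.32%) and none was lower (background 1.11%; 2.42% either way); at an unadjusted p under 0.05 in edgeR, 6 were higher and 7 lower, beside 14.1% of all genes tested. Eepd1, whose human ortholog is an LXR target, had 71.4, 90 and 68.3 CPM in SGC0946+GW3965 cells, against 26.0, 30.8, 27.0 and 24.5 CPM in SGC0946 cells (1.5 ± 0.10, edgeR adjusted p = 4.63e-09). In DMSO+GW3965 cells it had 82.1, 76.5 and 75.3 CPM, against 34.7, 32.6, 30.6 and 29.8 CPM in DMSO cells (1.29 ± 0.10, edgeR adjusted p = 2.78e-08). After LPS it was at 1.73 ± 0.37 CPM in SGC0946+LPS and 2.65 ± 0.76 CPM in DMSO+LPS cells (SD, n = 3 each). Eepd1 thus moved in opposite directions with the LXR agonist and with LPS.

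**Figure D5:**
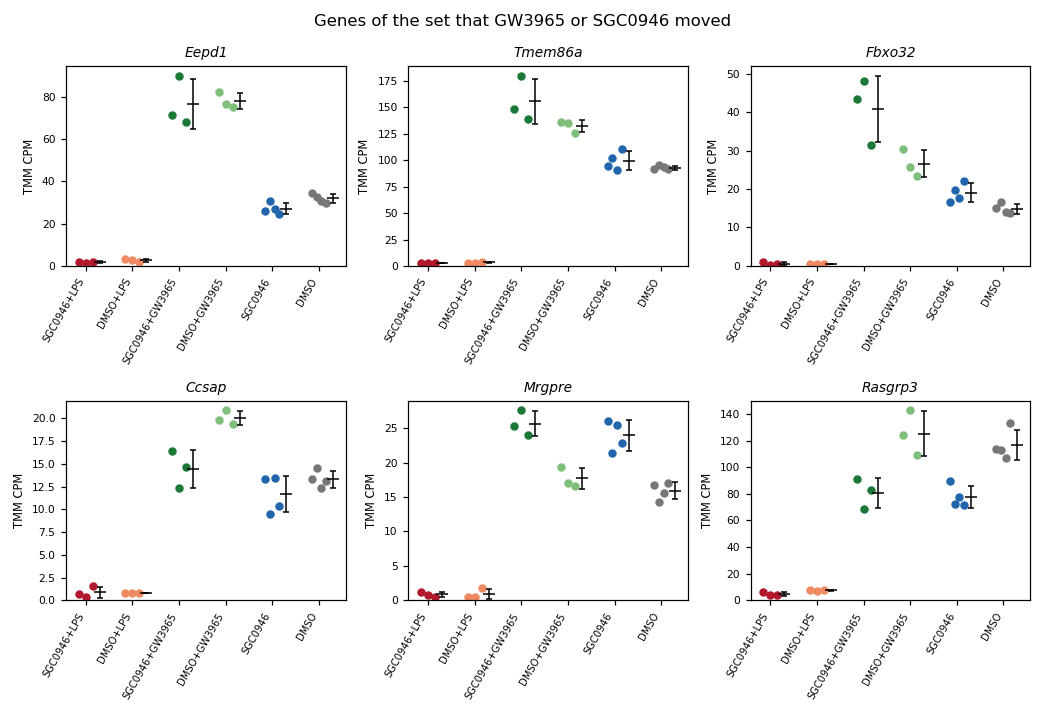
TMM CPM of 6 of the genes in every library, on linear axes from 0, with the mean ± SD of each group beside its points. Eepd1, Tmem86a and Fbxo32 are highest in the GW3965 groups and near 0 in the LPS groups; Mrgpre is higher and Rasgrp3 lower with SGC0946 in unstimulated and GW3965-treated cells.

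Fbxo32 and Tmem86a also rose with GW3965 in both arms. Fbxo32 had 43.3, 48.0 and 31.4 CPM in SGC0946+GW3965 cells, against 16.6, 19.8, 17.8 and 22.1 CPM in SGC0946 cells (1.10 ± 0.14, edgeR adjusted p = 3.07e-05). In DMSO+GW3965 cells it had 30.4, 25.8 and 23.5 CPM, against 15.0, 16.7, 13.9 and 13.7 CPM in DMSO cells (0.84 ± 0.14, edgeR adjusted p = 0.00139). Tmem86a rose by 0.65 ± 0.07 in SGC0946 cells (edgeR adjusted p = 1.37e-05) and by 0.51 ± 0.07 in DMSO cells (edgeR adjusted p = 0.000326). Ccsap rose in DMSO cells (0.59 ± 0.13, edgeR adjusted p = 0.0179). This call was lost without any 1 of the DMSO+GW3965 libraries (0.0529 to 0.0925) or without DMSO replicate 3 (0.0615). The fall of Lyl1 (-0.22 ± 0.06, edgeR adjusted p = 0.0365) was lost under 7 of 16 alternatives. It was lost without any 1 of the DMSO libraries (0.0544 to 0.0983) and without DMSO+GW3965 replicate 2 (0.194) or 3 (0.159). With no filter on low counts it was lost as well (0.0569). With the animal as a block, Vash2 was also higher (0.49, edgeR adjusted p = 0.0306) in SGC0946+GW3965 against SGC0946 cells, where that fit called 3.3% of all genes tested. The responses to GW3965 of the 2 arms did not differ past the threshold in any gene of the set or in any gene tested (edgeR interaction term); at an unadjusted p under 0.05, 1 gene of the set and 291 of all genes did.

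Genes of related function moved in both directions with LPS in the SGC0946 arm. Of all genes tested, 38.8% were lower and 35.8% higher there, with a median log2 change of -0.07. A list of FOXO-associated and nutrient stress genes holds Sesn1, Fbxo32, S1pr1 and Foxo3, which the rule chose for their fall in DMSO cells. Of its 24 genes tested, 16 were lower and 4 higher, with a median log2 change of -1.08. These counts include the 4 genes of the set, and the list was drawn up with results of these data known. Outside the set, Ddit4, another inhibitor of mTORC1, changed by -3.48 ± 0.32 (edgeR adjusted p = 2.04e-09) and Irs2, an adaptor of insulin signalling, by -3.52 ± 0.25 (edgeR adjusted p = 2.53e-11). Of 37 macrophage G protein-coupled receptors, 15 were lower and 17 higher, with a median of 0.23; Cxcr4, S1pr1 and Lpar5 are in this list. The receptor with the largest change was Adora2a, for adenosine, at 115 CPM in SGC0946+LPS cells against 0.136 CPM in SGC0946 cells. Of 35 macrophage transcription factors, 16 were lower and 16 higher. Cebpd, a relative of Cebpa, rose to 164 CPM in SGC0946+LPS cells, against 10.6 CPM in SGC0946 cells (3.95 ± 0.13, edgeR adjusted p = 1.54e-17).

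The other lists had fewer genes of the set or none. Their counts stand beside the same shares of all genes tested, 38.8% lower and 35.8% higher. RNA decay regulators, which hold Zfp36l1, had 8 lower and 9 higher of 18, and a list of Arhgap, Arhgef, Dock and related regulators of small GTPases, which holds Arhgap19, 11 lower and 14 higher of 32. RGS proteins and arrestins had 9 lower and 4 higher of 14, with a median of -0.57. BMP and TGF-beta genes had 8 lower and 7 higher of 18, phosphoinositide signalling genes 13 lower and 14 higher of 28, and cell cycle genes 8 lower and 4 higher of 22. Toll-like receptors and adaptors had 5 lower and 17 higher of 24, and phagocytic receptors 5 lower and 13 higher of 23. All 18 reference genes of the LPS response were higher, with a median of 7.39. The lists were drawn up with results of these data known.

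The genes were spread over 19 chromosomes, with 8 on chromosome 11. Sesn1 and Armc2 are neighbours that end 26 bases apart on opposite strands of chromosome 10. Foxo3 lies 163462 bases beyond Armc2 with 3 annotated genes between them. Armc2 had 10.8, 14.3, 10.3 and 11.8 CPM in SGC0946 cells, and as its reads border those of the much more abundant Sesn1 without a known strand setting, its level is uncertain. Exons of Zfp36l1, Il16, Fam83f, Irf2bp2 and Klhl21 overlap other genes over 20.5% to 55.9% of their length, which limits those genes likewise. Of the 25 other RefSeq transcripts of the set with 1 CPM or more in DMSO cells, 24 had also fallen 12-fold or more; they share reads with the counted ones.

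By their annotation the 49 genes had fewer exons and longer 3′ untranslated regions than the genes tested. The medians were 6 exons in the set against 9 in all genes tested, and a 3′ untranslated region of 1940 against 998 bases. The median GC content of the transcript was 53.7% against 50.3%. The pentamer ATTTA, the core of AU-rich elements, occurred in the 3′ untranslated region of 70.2% of the set with such a region and of 67.0% of all genes tested. Per kilobase it was less frequent in the set, with a median of 0.97 against 1.44. These are descriptions of chosen genes and were not tested.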

How the data were processed

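Per the labels' protocols, RNA of mouse bone marrow-derived macrophages (700 ng per library) was sequenced from 1 end with reads of 50 bases. Per the submitters' processing notes, STAR 2.5.2b and SAMtools 1.3.1 were used with the mm10 build. The program that counted reads and its strand setting are not stated there. The authors deposited a table of read counts per RefSeq transcript and library. The authors also deposited RPKM of the same transcripts, used here only to compare levels between genes. The 35745 transcripts were matched to symbols by RefSeq (GRCm38.p6). The 305 without a symbol held 1.17% of counts and were left out. The transcript with the highest total count stood for its symbol, which kept 57.3% of counts.

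From there, 12013 genes passed filterByExpr of edgeR (count minimum 10). All 20 libraries entered 1 model with a mean for each group, tested by the quasi-likelihood F test of edgeR 4.0.16 (R 4.3.3). TMM factors were 0.686 to 0.717 in LPS libraries and 1.14 to 1.19 in others. This main model had no term for the animal, so its counts and p-values do not use the pairing of the samples. P-values were adjusted by Benjamini-Hochberg over these genes and called under 0.05. CPM are counts scaled to library size, and SEs were derived from the fold change and its F. The script was tested on simulated data. The rule's own contrast, DMSO+LPS against DMSO, was not tested in the set, nor was the difference of LPS responses. Intervals of ratios are exact binomial at 95% on summed counts, and cover counting error but not the spread between animals.

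The set, its classes and the gene lists were chosen with earlier results of these data known. The genes named are the 12 with the highest CPM in DMSO cells, the 8 with the deepest fall, the 6 with the smallest and the 6 with the largest LPS change in the SGC0946 arm, up to 6 per direction and SGC0946 or GW3965 comparison, the 3 on each side of the threshold, and those in a list. For 1 member the values are not reported here. Others were named after their values were seen, to complete the classes. A deposited sample sheet gives the replicate number as the mouse, so same-numbered samples are paired. Deviations from group means correlated at 0.061 to 0.501 between libraries of the same animal (median 0.20) and at -0.409 to 0.257 between animals. A fit with the animal as a block, DESeq2 1.42.0, limma-voom (limma 3.58.1), other scalings, filters, transcripts and left-out replicates were the alternatives.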

Additional observations from a re-analysis of the deposited data

Results flagged for a closer look

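In groups of 4 libraries, 1 of 96 values of the genes reported here (1.04%) had a library far from the other 3, where chance alone gives about 1 in 20. Cxcr4 in SGC0946 replicate 4 had 187 CPM, and the other SGC0946 libraries had 164 to 168 CPM. This is a small step beside the fall of Cxcr4 with LPS, and the cause was not tested.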

How the results depend on the processing

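The 49 genes were all lower in SGC0946+LPS than in SGC0946 cells under each alternative run. Scaling moved the size of the fall: with library totals alone the median of all genes tested shifted by -0.73 in the DMSO arm and by -0.74 in the SGC0946 arm, and relative to TMM values the set was lower still. The number of genes meeting the rule was then 139; it was 75 with a level limit of 5 CPM, 51 with TMM factors over all symbols (chosen after seeing the data), and 48 to 53 with any library left out. Genes called for SGC0946 against DMSO numbered 9 to 13 with a library left out, 5 without SGC0946 replicates 2 and 4, and 2 with DMSO replicate 4 alone as the DMSO group (both chosen after seeing the data). For SGC0946+LPS against DMSO+LPS the count was 0 with limma-voom, 1 with only the compared groups and 0 to 3 with a library left out, where edgeR on all libraries had 7 at an unadjusted p under 0.05 (21.3% of all genes tested). For SGC0946+GW3965 against DMSO+GW3965 it was 11 with limma-voom, 11 with no filter, 4 with only the compared groups, 15 with the replicate block and 3 to 10 with a library left out. For DMSO+GW3965 against DMSO it was 10 with only the compared groups and 3 to 5 with a library left out. For SGC0946+GW3965 against SGC0946 it was 6 with DESeq2, 5 with limma-voom, 5 with the replicate block and 3 to 7 with a library left out. The replicate block changed no other count by more than 1.5 times. Over 78 results for named genes, 1255 of 1327 alternative values kept direction and side of the threshold, 72 kept direction only and 0 reversed. Of the 78 results, 49 are the large falls in SGC0946+LPS against SGC0946, which lost no call. All 72 losses were thus among the SGC0946 and GW3965 comparisons. The causes of these changes were not tested. Depth limits what can be seen after LPS, where 4 genes had under 10 counts over the 3 DMSO+LPS libraries.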
